A study of Homo sapiens with 6 samples.

Results

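The receptors, receptor substrates and binding proteins of insulin and the insulin-like growth factors were followed in BT474 cells that carried a variant of the long non-coding RNA NR2F1-AS1. The genes were IGF1R, IGF2R, INSR, IRS1, IRS2, IGFBP2, IGFBP3, IGFBP4, IGFBP5 and IGFBP6, and every probe whose gene name on the array equalled one of these symbols was taken. These were 10 of the 43317 gene names on the array, read by 11 of its 58201 non-control probes. IRS1 had 2 probes and each other gene had 1. Of the 11 probes, 10 were tested, for 9 of the 10 genes, and the IGFBP6 probe was dim on every array and was not tested.

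BT474 is an established line of breast cancer cells with estrogen receptor and amplified HER2. Control cells were BT474 transfected with empty pcDNA3.1, BT474-Var1 cells carried the long variant 1 of NR2F1-AS1 and BT474-Var4 cells carried the short variant 4, each on a pcDNA3.1 plasmid, with 2 one-color arrays per group. The backbone was pcDNA3.1/Hygro(+) in BT474-Var1 and pcDNA3.1-P2A-eGFP in BT474-Var4, so that the backbone and the variant cannot be told apart, and which empty plasmid the Control cells of these arrays carried was not given in the sources used here. All 3 groups had thus been transfected with plasmid DNA, and variant and Control cells had passed antibiotic selection before they were kept without antibiotics in the same serum-containing medium. The study describes the variant cultures as having shrunk to few cells, from which the later colonies grew, so that outgrowth from few cells and the variant cannot be told apart here. The labels do not say whether arrays A and B of a group came from separate cultures, so the p-values measure only the spread between these arrays, which may be technical.

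All 6 arrays lay on 1 slide and were scanned together. The BT474-Var1 arrays occupied slide column 2 and the other 4 arrays column 1, so that variant 1 and the slide column cannot be told apart. The Control arrays occupied slide rows 1 and 2, and the arrays of both variants rows 3 and 4. In either comparison with Control, the variant and the slide row thus cannot be told apart. Between 47.6% and 57.5% of probes were well above background per array, and the 2 arrays of a group had a median SD of 0.06 to 0.07 on the log2 scale. NR2F1-AS1, the introduced RNA, was read by 4 probes. One of them lay at -0.42 and -0.51 in BT474-Var1 and at or below -5.73 on the other 4 arrays. Another lay at 1.67 and 1.50 in BT474-Var4 and at or below -4.25 on the others, as the labels state. A further probe read both variants, at -1.69 and -1.52 in BT474-Var1 and at 3.01 and 3.02 in BT474-Var4. On it BT474-Var4 was higher by 4.62 (adjusted p = 0.0053 by limma). The remaining probe was at -0.19 and -0.22 in BT474-Var1 and not well above background in BT474-Var4. The luminal epithelial markers EPCAM, CDH1, KRT8, KRT18, KRT19, GATA3, ESR1 and ERBB2 were well above background on all 6 arrays, 8 of 8. Their levels were not all equal between groups. In BT474-Var1 against Control, EPCAM (-0.66) and CDH1 (-0.47) were lower at an adjusted p under 0.05 by limma. KRT8 (0.32), KRT19 (0.62) and ERBB2 (0.22) were higher, and KRT18, GATA3 and ESR1 did not pass.

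Insulin and IGF-I bind receptor tyrosine kinases, the insulin receptor and the IGF-I receptor, which phosphorylate the substrates IRS1 and IRS2 and through them switch on PI3K and AKT. The IGF-II receptor, also called the cation-independent mannose 6-phosphate receptor, has no kinase and carries IGF-II to the lysosome. The IGFBPs are secreted proteins that hold IGFs in the extracellular fluid, limit or prolong their action and, for some of them, act on cells without IGF. In luminal breast cancer cells, IGF1R, IRS1 and IGFBP4 are known as genes that estrogen can raise.

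These 4 probes carried the largest differences, and the first 30 bases of each 60-base probe are given 5′ to 3′ to show which stretch of the transcript was read, in lower case with no part marked. The positions are those of the array's annotation on hg19. The IGFBP3 probe lay on chromosome 7 from 45952608 to 45952667 on the minus strand, and the IGFBP5 probe on chromosome 2 from 217537167 to 217537226 on the minus strand. The IRS1 probes lay on chromosome 2 from 227600148 to 227600207 and from 227596618 to 227596677, both on the minus strand, with 3470 bases between them. No exon or UTR annotation of this build was used here.
IGFBP3: agcctccacattcagaggcatcacaagtaa
IGFBP5: ccacagtacatattactgtagttctctata
IRS1, probe A_24_P225679: tttttcctgtaagacaataggccatgttaa
IRS1, probe A_24_P802145: cttggcatttaaatctctctttgcttatgc

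The stretches in front of the start sites of IGFBP3, IGFBP5 and IRS1, the genes with a change of 2-fold or more, and of IGF2R, the one gene here with an E-box, are given from RefSeq on GRCh38.p14, 250 bases that end at the base before the start, 5′ to 3′ on the gene's strand. All 10 genes matched the promoter table, with 12 start sites in all, since IGFBP2 had 3. Capitals mark the E-box CACGTG, a site of basic helix-loop-helix factors, and the GC box GGGCGG, a site of SP1-like factors, each read on both strands, with adjacent or overlapping matches running together. IGFBP3 was at chr7:45921273-45921522 on the minus strand, IGFBP5 at chr2:216695550-216695799 on the minus strand, IRS1 at chr2:226799821-226800070 on the minus strand and IGF2R at chr6:159968832-159969081 on the plus strand.
IGFBP3: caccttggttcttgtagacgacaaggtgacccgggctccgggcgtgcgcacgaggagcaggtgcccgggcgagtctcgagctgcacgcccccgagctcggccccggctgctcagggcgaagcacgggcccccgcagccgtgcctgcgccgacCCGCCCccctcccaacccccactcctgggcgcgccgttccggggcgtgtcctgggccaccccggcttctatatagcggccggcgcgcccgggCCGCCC
IGFBP5: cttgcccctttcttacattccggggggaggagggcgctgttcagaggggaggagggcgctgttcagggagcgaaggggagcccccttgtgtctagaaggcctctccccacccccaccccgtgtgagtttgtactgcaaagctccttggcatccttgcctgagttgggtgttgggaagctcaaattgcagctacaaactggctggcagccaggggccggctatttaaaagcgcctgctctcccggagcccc
IRS1: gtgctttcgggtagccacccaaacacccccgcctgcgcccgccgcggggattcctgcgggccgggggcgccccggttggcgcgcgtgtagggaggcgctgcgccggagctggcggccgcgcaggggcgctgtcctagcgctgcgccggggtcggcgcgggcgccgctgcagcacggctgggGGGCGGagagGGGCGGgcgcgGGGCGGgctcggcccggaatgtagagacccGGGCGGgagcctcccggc
IGF2R: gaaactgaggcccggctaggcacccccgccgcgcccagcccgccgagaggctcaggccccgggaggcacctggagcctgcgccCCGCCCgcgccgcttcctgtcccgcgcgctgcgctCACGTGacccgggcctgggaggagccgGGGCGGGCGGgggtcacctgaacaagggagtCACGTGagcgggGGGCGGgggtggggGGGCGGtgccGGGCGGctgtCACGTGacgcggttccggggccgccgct
The IGFBP3 stretch held 2 GC boxes, the IGFBP5 stretch held no match to either motif, the IRS1 stretch held 4 GC boxes and no E-box, and the IGF2R stretch held 6 GC boxes and 3 E-boxes, whose first bases lay 132, 74 and 28 bases before the start. A GC box was found before 10 of the 12 start sites of the 10 genes and before 42.6% of 35116 start sites in the table. An E-box was found before 1 of the 12, that of IGF2R, and before 6.34% of all. Of the other motifs searched on both strands, the hypoxia response core ACGTG, which also lies inside the E-box, stood before IGF1R and IGF2R and before 18.5% of all start sites. The forkhead site GTAAACA stood before IGFBP6 only among the 10 genes and before 2.98% of all, and the nuclear receptor half-site AGGTCA before 1 of the IGFBP2 start sites and before 12.1% of all. GC content was 76.0% for IGFBP3, 61.2% for IGFBP5, 80.8% for IRS1 and 79.2% for IGF2R, beside a median of 58.0% over all start sites.

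Values are log2 processed signals less the 75th percentile of the array, so that 0 is the level of the array's 75th percentile probe and a difference of 1 is a 2-fold change. They are compared for 1 probe between groups and never between probes. A probe passed the test at an adjusted p under 0.05 in the limma fit over all 31857 tested probes, and the interval given with a change is the fit's own 95% interval, not adjusted for the number of probes. In BT474-Var1 against Control, 4 of the 10 tested probes were past the test and higher, where 14.1% of all tested probes were, and 5 were past it and lower, where 20.3% were. In BT474-Var4 against Control, 4 were higher, beside 9.87% of all tested probes, and 3 were lower, beside 14.3%. In BT474-Var4 against BT474-Var1, 3 were higher, beside 20.4%, and 3 were lower, beside 20.7%. Without any 1 array these totals of 9, 7 and 6 became 3 to 7, 3 to 6 and 5 to 6. They were lowest, at 3, without Control A or Control B in both comparisons with Control, and without BT474-Var4 B in the second. With no filter on dim probes the totals were 1, 2 and 4, where 2672, 722 and 5112 of all 58201 probes passed. With the filter, 10958, 7710 and 13116 of all 31857 tested probes did.

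Only changes of IGFBP3, IGFBP5 and IRS1 among these genes both passed the test and reached 2-fold. In BT474-Var1 against Control, 1 probe was at least 2-fold higher, where 2.78% of all tested probes were, and 0 were at least 2-fold lower, where 1.16% were. In BT474-Var4 against Control the counts were 1 higher, beside 1.6%, and 1 lower, beside 1.57%. In BT474-Var4 against BT474-Var1 they were 1 higher, beside 2.27%, and 1 lower, beside 4.6%. The median change of the 10 probes was -0.21, 0.12 and -0.04 on the log2 scale in the 3 comparisons, beside -0.04, -0.08 and -0.03 over all tested probes.

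**Figure D1:**
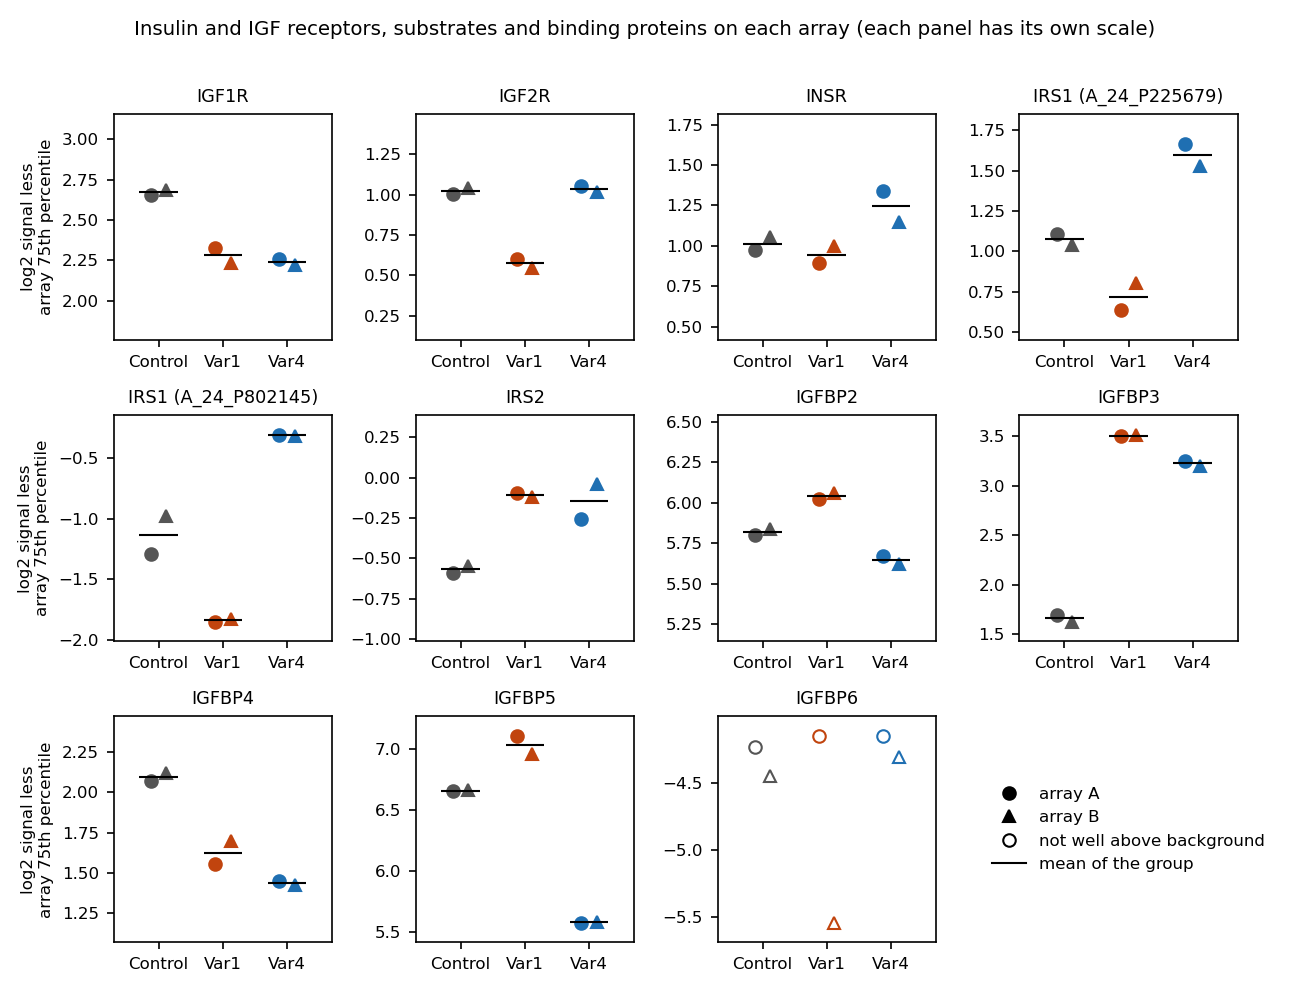
Log2 signal of each of the 11 probes on each array, less the array's 75th percentile, with circles for array A, triangles for array B, a line at the mean of a group and open symbols where the probe was not well above background. IGFBP3 sits between 3.20 and 3.51 on the 4 variant arrays and at 1.69 and 1.63 on the Control arrays, while IGFBP5 and both IRS1 probes lie on opposite sides of Control in the 2 variants, and IGFBP6 is dim throughout.

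IGF1R, the receptor tyrosine kinase for IGF-I and IGF-II, was lower in both variants. It stood at 2.65 and 2.69 on the Control arrays, at 2.33 and 2.23 in BT474-Var1 and at 2.26 and 2.22 in BT474-Var4. Both Control arrays lay above all 4 variant arrays, and the variants overlapped each other. In RNA of a whole culture, fewer cells that express a gene and less RNA per cell cannot be told apart. In BT474-Var1, IGF1R fell by 0.39 ± 0.06 (SE, log2 scale, adjusted p = 0.0114), or 1.31-fold. The fall was 0.43 ± 0.06 (adjusted p = 0.0136), or 1.35-fold, in BT474-Var4. Between the variants the difference was -0.04 (95% interval -0.19 to 0.11, adjusted p = 0.610). The call in BT474-Var1 was lost without Control A (-0.41, adjusted p = 0.0589) and without Control B (-0.37, adjusted p = 0.0648), and that in BT474-Var4 without any 1 of the Control and BT474-Var4 arrays (adjusted p = 0.0555 to 0.0795), while the change stayed between -0.45 and -0.41.

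IGF2R, the receptor that clears IGF-II, was lower in BT474-Var1 alone among the variants. Its values were 1.01 and 1.04 in Control, 1.05 and 1.02 in BT474-Var4, and 0.60 and 0.54 in BT474-Var1. Control and BT474-Var4 overlapped, and both BT474-Var1 arrays lay below all the others. The fall in BT474-Var1 was 1.37-fold (-0.45 ± 0.05, adjusted p = 0.0072), and BT474-Var4 exceeded BT474-Var1 by 0.46 ± 0.05 (adjusted p = 0.0052), a test of the difference between the variants themselves. BT474-Var4 differed from Control by 0.01 (95% interval -0.13 to 0.15, adjusted p = 0.879). The calls held without each array in turn.

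INSR, the insulin receptor, passed the test in no comparison. It was measured at 0.97 and 1.05 in Control, 0.89 and 1.00 in BT474-Var1, and 1.34 and 1.15 in BT474-Var4. The BT474-Var4 arrays lay above the other 4, which overlapped. The differences were -0.07 in BT474-Var1 (95% interval -0.31 to 0.17, adjusted p = 0.600), 0.23 in BT474-Var4 (95% interval -0.0096 to 0.47, adjusted p = 0.135) and 0.30 between BT474-Var4 and BT474-Var1 (95% interval 0.06 to 0.54, adjusted p = 0.0579). With normexp background correction, BT474-Var4 passed the test against Control (0.20, adjusted p = 0.0430) and against BT474-Var1 (0.27, adjusted p = 0.0085), as it did with a trended, robust variance estimate (adjusted p = 0.0270 and 0.0043).

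IRS1, the substrate that links both receptors to PI3K, moved apart in the 2 variants on both of its probes. Probe A_24_P225679 read 1.11 and 1.04 in Control, 0.64 and 0.80 in BT474-Var1, and 1.66 and 1.53 in BT474-Var4. Probe A_24_P802145 read -1.29 and -0.98 in Control, -1.85 and -1.82 in BT474-Var1, and -0.31 and -0.32 in BT474-Var4. On either probe the 3 groups did not overlap, with BT474-Var1 lowest and BT474-Var4 highest.

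BT474-Var4 exceeded BT474-Var1 in IRS1 by 0.87 ± 0.09 on the first probe (1.83-fold, adjusted p = 0.0039) and by 1.52 ± 0.11 on the second (2.88-fold, adjusted p = 0.0023). Against Control, BT474-Var1 was lower by -0.35 (adjusted p = 0.0397) and -0.70 (adjusted p = 0.0140), and BT474-Var4 was higher by 0.52 (adjusted p = 0.0216) and 0.82 (adjusted p = 0.0145). The changes on the probes had the same direction in all 3 comparisons and differed in size, and the second probe lies nearer the 3′ end of the gene. With normexp background correction the changes of this second probe were -0.24, 0.43 and 0.67, all still past the test. The difference between the variants held without each array on both probes. The calls against Control on the first probe were lost without any 1 of the 6 arrays in BT474-Var1 (adjusted p = 0.0564 to 0.157), or with quantile normalization (adjusted p = 0.0591), and without any 1 of the Control and BT474-Var4 arrays in BT474-Var4 (adjusted p = 0.0616 to 0.105). Neither of these calls passed in contrasts of a one-way analysis of variance without eBayes, under the adjustment used here (adjusted p = 0.0867 and 0.0577). Those on the second were lost without either array of the variant, with adjusted p between 0.0606 and 0.0676.

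IRS2, the second broadly expressed substrate, was higher in both variants. The Control arrays gave -0.59 and -0.54, the BT474-Var1 arrays -0.10 and -0.12, and the BT474-Var4 arrays -0.26 and -0.04. All 4 variant arrays lay above both Control arrays, and the variants overlapped. The rise was 0.46 ± 0.09 in BT474-Var1 (1.37-fold, adjusted p = 0.0212) and 0.42 ± 0.09 in BT474-Var4 (1.34-fold, adjusted p = 0.0349), and the variants differed by -0.04 (95% interval -0.27 to 0.20, adjusted p = 0.752). Its call in BT474-Var1 was lost without any 1 of the Control and BT474-Var1 arrays (adjusted p = 0.0779 to 0.0988), and its call in BT474-Var4 without any 1 array other than BT474-Var4 A (adjusted p = 0.0696 to 0.143). Neither passed in contrasts of a one-way analysis of variance without eBayes, under the adjustment used here (adjusted p = 0.0558 and 0.0798). In BT474-Var1 cells IRS1 was thus lower and IRS2 higher than in Control, whereas in BT474-Var4 cells both were higher.

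**Figure D2:**
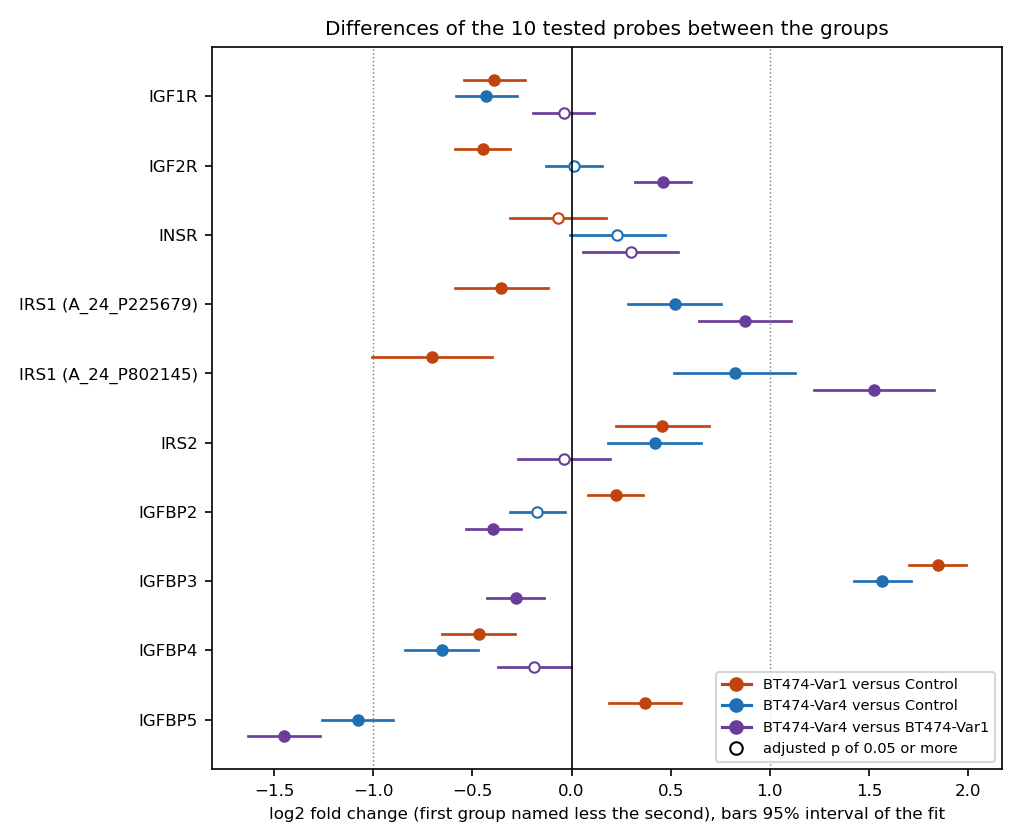
Log2 fold change of the 10 tested probes in the 3 comparisons, the first group named less the second, with the 95% interval of the limma fit as bars, open symbols at an adjusted p of 0.05 or more and dotted lines at 2-fold. IGFBP3 is far to the right in both variants against Control (1.85 and 1.57), and IGFBP5 and IRS1 show the widest spread between the variants (-1.45 for IGFBP5, 0.87 and 1.52 for IRS1).

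IGFBP3, the main carrier of IGFs in serum and known to restrain growth of many epithelial cells, showed the largest change of these genes in both variants. It stood at 1.69 and 1.63 on the Control arrays, at 3.50 and 3.51 in BT474-Var1 and at 3.25 and 3.20 in BT474-Var4. The 3 groups did not overlap, and the gap between Control and the nearest variant array was 1.51. The rise was 1.85 ± 0.05 (3.60-fold, adjusted p = 0.0020) in BT474-Var1 and 1.57 ± 0.05 (2.96-fold, adjusted p = 0.0020) in BT474-Var4. Both rises were past the test under each of the 15 alternative settings, between 1.67 and 1.95 in BT474-Var1 and between 1.44 and 1.60 in BT474-Var4. BT474-Var4 was lower than BT474-Var1 by -0.28 ± 0.05 (adjusted p = 0.0179), a call lost without any 1 of the 4 variant arrays (adjusted p = 0.0539 to 0.0755).

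The IGFBP3 probe was printed on 10 spots of each array, which gives the measurement error within an array. The spots had an SD of 0.04 to 0.08 on the log2 scale. The highest Control spot was at 1.79 and the lowest variant spot at 3.07, so that no spot of a Control array reached a spot of a variant array. Spots of 1 array share its RNA and are not replicates of a condition.

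**Figure D3:**
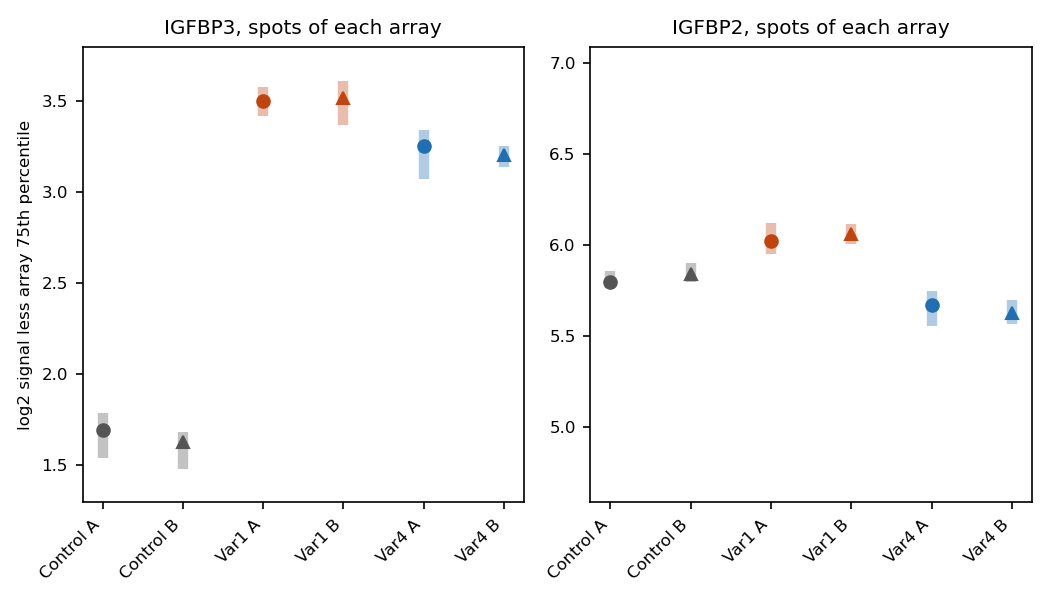
Log2 signal, less the array's 75th percentile, of the probes of IGFBP3 and IGFBP2 that were printed on 10 spots per array, with a symbol at the mean of the spots and a bar from the lowest to the highest spot. The IGFBP3 bars of Control reach 1.79 at most and those of the variants begin at 3.07, while the IGFBP2 means of all 6 arrays lie within 5.62 to 6.06.

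IGFBP5, a matrix-bound binding protein abundant in mammary epithelium, lay above Control in BT474-Var1 and below it in BT474-Var4. Its values were 6.66 and 6.66 in Control, 7.11 and 6.96 in BT474-Var1, and 5.58 and 5.58 in BT474-Var4. The 3 groups did not overlap. The fall in BT474-Var4 was -1.08 ± 0.07 (2.11-fold, adjusted p = 0.0038), and BT474-Var4 was 2.73-fold below BT474-Var1 (-1.45 ± 0.07, adjusted p = 0.0013). Both calls held under each of the 15 alternative settings. The rise in BT474-Var1 was 0.37 ± 0.07 (adjusted p = 0.0185), which was lost without Control A (0.37, adjusted p = 0.0872), without Control B (0.37, adjusted p = 0.0844) and without BT474-Var1 A (0.30, adjusted p = 0.0576).

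IGFBP2, a binding protein that many carcinomas secrete, was highest in BT474-Var1 and lowest in BT474-Var4. IGFBP2 and IGFBP5 are next to each other among the protein-coding genes of chromosome 2, and their probes, the IGFBP2 one at 217529086 to 217529145 on the plus strand of hg19, lay 8021 bases apart. IGFBP2 was at 5.80 and 5.84 in Control, 6.02 and 6.06 in BT474-Var1, and 5.67 and 5.62 in BT474-Var4. The groups did not overlap, and their order was the one seen for IGFBP5. The probe was printed on 10 spots per array, with an SD of 0.03 to 0.05, and on BT474-Var1 B 1 spot was marked as an outlier and left out, leaving 9. BT474-Var4 was lower than BT474-Var1 by -0.40 ± 0.05 (1.32-fold, adjusted p = 0.0072). The rise in BT474-Var1 was 0.22 ± 0.05 (adjusted p = 0.0343), lost without any 1 of the 6 arrays (adjusted p = 0.0592 to 0.146), and the difference of BT474-Var4 from Control was -0.17 (95% interval -0.31 to -0.03, adjusted p = 0.0789). The latter passed with normexp background correction (adjusted p = 0.0318) and with a trended, robust variance estimate (adjusted p = 0.0042).

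IGFBP4, which mostly restrains IGF action and is cut by the protease PAPPA, was lower in both variants. It was measured at 2.07 and 2.12 in Control, 1.55 and 1.70 in BT474-Var1, and 1.45 and 1.42 in BT474-Var4. Both Control arrays lay above all variant arrays. The fall was -0.47 ± 0.07 in BT474-Var1 (1.38-fold, adjusted p = 0.0113) and -0.66 ± 0.07 in BT474-Var4 (1.57-fold, adjusted p = 0.0085). Without Control A the adjusted p was 0.057 and 0.0537 in the 2 variants, and without Control B 0.0642 and 0.0586, so that both calls depended on having both Control arrays. The variants differed by -0.19 (95% interval -0.37 to -0.0038, adjusted p = 0.0924), which passed the test with quantile normalization (-0.26, adjusted p = 0.0488), with normexp (-0.15, adjusted p = 0.0337) and with a trended, robust variance estimate (adjusted p = 0.0205).

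IGFBP6, which prefers IGF-II, was not well above background on any of the 6 arrays. The measured values, which have no order at this level, ran from -5.54 to -4.15, and no change is given for it.

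ESR1, the estrogen receptor, was itself read at 2.11 and 2.18 in Control, 1.95 and 2.09 in BT474-Var1, and 1.64 and 1.71 in BT474-Var4. It was lower in BT474-Var4 than in Control by -0.47 (adjusted p = 0.0176) and than in BT474-Var1 by -0.34 (adjusted p = 0.0228), and BT474-Var1 differed from Control by -0.13 (adjusted p = 0.238). In BT474-Var4, where ESR1 was lowest, IGF1R, IGFBP4 and IGFBP5 were below Control and IRS1 was above it. In BT474-Var1, where ESR1 did not pass the test, IGF1R (-0.39), IGFBP4 (-0.47) and IRS1 (-0.35 and -0.70) were below Control and IGFBP5 (0.37) was above it. The part of ESR1 in these changes was not tested.

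The ligands were at the dim end of the arrays. INS, the insulin gene, was at -2.64 and -2.36 in Control, -2.10 and -2.55 in BT474-Var1, and -2.41 and -2.74 in BT474-Var4, with all groups overlapping and adjusted p between 0.387 and 0.818. IGF2 was at -2.60 and -1.98 in Control, -2.92 and -2.39 in BT474-Var1, and -1.89 and -1.93 in BT474-Var4, with adjusted p between 0.0914 and 0.367. IGF1 was well above background on both BT474-Var1 arrays (-2.67 and -2.95), on Control A (-3.71), and on neither BT474-Var4 array. By the group means, BT474-Var1 exceeded BT474-Var4 in IGF1 at least 2.13-fold (adjusted p of the fitted change = 0.0284). This call was lost without any 1 of the 4 variant arrays or with quantile normalization (-1.65, adjusted p = 0.0563). With normexp background correction, a background model that pulls dim probes together, the fitted change of -2.09 became -0.34, still past the test. The second probes of IGF1 and IGF2 were too dim to be tested.

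Beyond these genes, 81 genes of the pathway were listed by role, all of them on the array, and 74 were tested, each on its brightest tested probe. In BT474-Var1 against Control, 15 were past the test and higher and 21 lower, with a median change of -0.12, where 14.1% and 20.3% of all tested probes were. In BT474-Var4 against Control, 13 were higher and 9 lower (median 0.03), beside 9.87% and 14.3% of all tested probes. In BT474-Var4 against BT474-Var1, 23 were higher and 16 lower (median 0.10), beside 20.4% and 20.7%. Without any 1 array these counts of 36, 22 and 39 became 13 to 26, 3 to 15 and 28 to 39. At 2-fold they were 3 higher and 1 lower, 2 higher and 0 lower, and 3 higher and 4 lower, beside 2.78% and 1.16%, 1.6% and 1.57%, and 2.27% and 4.6% of all tested probes.

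The PI3K, AKT and mTOR arm, the route from IRS1 and IRS2 into the cell, was the longest of the lists, with 30 of the 74 tested genes. Of these, 6 were higher and 12 lower in BT474-Var1, 3 higher and 4 lower in BT474-Var4, and 9 higher and 6 lower in BT474-Var4 against BT474-Var1. These counts, and those of the lists that follow, stand beside 14.1% higher and 20.3% lower, 9.87% and 14.3%, and 20.4% and 20.7% of all tested probes in the 3 comparisons. DDIT4, an inhibitor of mTORC1 that stress and hypoxia raise, was at 2.43 and 2.37 in Control, 4.11 and 4.11 in BT474-Var1, and 2.87 and 2.85 in BT474-Var4. It was 3.26-fold higher in BT474-Var1 (1.70, adjusted p = 0.0020) and 1.38-fold higher in BT474-Var4 (0.46, adjusted p = 0.0093). The latter was lost without Control A (adjusted p = 0.0529) or Control B (adjusted p = 0.061), and the variants differed by -1.24 (adjusted p = 0.0012).

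Among adaptors and receptor inhibitors, with 15 tested genes, 3 were higher and 6 lower in BT474-Var1, 1 higher and 3 lower in BT474-Var4, and 7 higher and 4 lower between the variants. SH2B1, an adaptor that enhances insulin receptor signaling, moved in opposite directions, up by 0.80 in BT474-Var1 (adjusted p = 0.0047) and down in BT474-Var4 (-0.62, adjusted p = 0.0095). Its difference between the variants was -1.41 (2.66-fold, adjusted p = 0.0013), with values of -0.62 and -0.61 in BT474-Var1 and -2.10 and -1.96 in BT474-Var4. Its fall in BT474-Var4 was lost without Control A (adjusted p = 0.0563) or Control B (adjusted p = 0.0622), and normexp background correction made the 3 changes 0.44, -0.24 and -0.68. SOCS3, a feedback inhibitor of cytokine and insulin signaling, differed by 1.37 between the variants, higher in BT474-Var4 (adjusted p = 0.0360), with BT474-Var1 A not well above background. That call held without BT474-Var1 B and was lost without any other array (adjusted p = 0.0502 to 0.135), and the change ran from 0.90 (without BT474-Var1 A) to 1.85 (without BT474-Var1 B) and was 0.26 with normexp background correction.

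FOXO factors and genes they raise, which insulin signaling holds down, had 5 of 12 tested genes higher and 2 lower in BT474-Var1, 3 higher and 2 lower in BT474-Var4, and 2 higher and 3 lower between the variants. Between the variants these counts were near the share over all tested probes. CITED2, a transcriptional coregulator, was at 2.24 and 2.24 in Control, 3.41 and 3.40 in BT474-Var1, and 2.37 and 2.35 in BT474-Var4. It rose by 1.17 in BT474-Var1 (2.24-fold, adjusted p = 0.0024), and BT474-Var4 was below BT474-Var1 by -1.05 (adjusted p = 0.0012). Its second probe gave 1.15 (adjusted p = 0.0037) and -1.43 (adjusted p = 0.0014).

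The other lists held few tested genes each. Of the 7 tested IGFBP proteases and their regulators, limma called 0 in BT474-Var1, where 0 were also at an unadjusted p under 0.05, 2 higher in BT474-Var4, and 2 higher and 1 lower between the variants. Of the 3 IGF2 mRNA-binding proteins, 0 were called in BT474-Var1, with 0 at an unadjusted p under 0.05, and 1 was higher in BT474-Var4 against Control and against BT474-Var1. Of the 5 tested ligands and other receptors, 1 was higher in each variant against Control and 2 were lower in BT474-Var4 against BT474-Var1, and of 2 other IGF-binding proteins, 1 was lower in BT474-Var1 and both were higher in BT474-Var4 in either comparison.

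IGFALS, which holds IGFBP3 and IGFBP5 with an IGF in the ternary complex of serum, was higher in both variants. Its values were -2.69 and -2.87 in Control, -1.50 and -1.66 in BT474-Var1, and -2.15 and -2.34 in BT474-Var4. The groups did not overlap. The rise was 1.20 in BT474-Var1 (2.30-fold, adjusted p = 0.0050) and 0.54 in BT474-Var4 (adjusted p = 0.0331), and the variants differed by -0.66 (adjusted p = 0.0125). The BT474-Var4 rise was lost without any 1 of the 6 arrays (adjusted p = 0.0558 to 0.133), and the difference between the variants without BT474-Var4 B (-0.57, adjusted p = 0.0535) or BT474-Var1 A (-0.59, adjusted p = 0.0564). With normexp background correction the 3 changes were 0.35, 0.12 and -0.23, of which that of BT474-Var4 against Control did not pass the test (adjusted p = 0.0732).

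IGFBP1, the binding protein that insulin represses in liver and the neighbor of IGFBP3 on chromosome 7, was well above background on both BT474-Var4 arrays (-3.19 and -3.28), on Control B (-4.41), and on neither BT474-Var1 array. By the group means, BT474-Var4 exceeded BT474-Var1 in IGFBP1 at least 1.73-fold (adjusted p of the fitted change = 0.0073). Against Control, where Control A was not well above background, so that the size is not measured, the fitted difference of BT474-Var4 was 1.39 (adjusted p = 0.0120) and 0.17 with normexp background correction (adjusted p = 0.0147). The call was lost without BT474-Var4 A (1.34, adjusted p = 0.0579) or BT474-Var4 B (1.43, adjusted p = 0.0574). With normexp the difference between the variants was 0.09 and did not pass the test (adjusted p = 0.108).

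IGFBP7, an IGFBP-related protein of low affinity for IGFs, lay at -1.81 and -1.84 in BT474-Var4, at -3.30 and -4.30 in Control, and at -5.74 and -6.06 in BT474-Var1. It was well above background in BT474-Var4 and on Control A, and on no BT474-Var1 array. By the group means, BT474-Var4 exceeded BT474-Var1 in IGFBP7 at least 4.60-fold (adjusted p of the fitted change = 0.0029). The second tested probe of IGFBP7 differed in the same direction (3.21, adjusted p = 0.0019). Over Control, where Control B was not well above background, so that the size is not measured, the fitted difference of BT474-Var4 was 1.97 (adjusted p = 0.0243). The call was lost without BT474-Var4 A (adjusted p = 0.0916), BT474-Var4 B (adjusted p = 0.0948) or either BT474-Var1 array (1.97, adjusted p = 0.0508). With normexp background correction the 3 changes were -0.08, 0.39 and 0.47, of which the first did not pass the test (adjusted p = 0.218).

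Of the fibroblast markers, 2 of 4, COL1A1 and PDGFRB, were well above background on all 6 arrays, and COL1A2 was on none. Their summed linear level, in units of each array's 75th percentile, was 3.10 to 3.14 in Control, 3.65 to 3.77 in BT474-Var1 and 5.49 to 5.69 in BT474-Var4. COL1A1 was at 2.19 and 2.17 in BT474-Var4 against 1.17 and 1.12 in Control. DCN was well above background in BT474-Var4 only, by the group means at least 7.11-fold over Control (adjusted p of the fitted change = 0.0125). PDGFRB lay the other way, at -0.47 and -0.59 in BT474-Var4 against -0.28 and -0.13 in Control (-0.32, adjusted p = 0.129), and COL1A2 stayed at background. Of the 4 markers, COL1A1 and DCN were thus higher, as was IGFBP7, in BT474-Var4. In BT474-Var1, COL1A1 was also above Control, by 0.34 (adjusted p = 0.0116). IGFBP7 was below Control there (fitted -2.10, adjusted p = 0.0150) and not well above background, so that its size of change is not measured. That call was lost without BT474-Var1 A or BT474-Var1 B, and Control B was also not well above background. The part of these markers in the level of IGFBP7 was not tested. The sum of the 3 endothelial markers was 2.58 to 2.78 in Control, 1.77 to 1.89 in BT474-Var1 and 2.43 to 2.57 in BT474-Var4. The sum of the 3 basal markers was 0.0847 to 0.109 in Control, 0.136 to 0.183 in BT474-Var1 and 0.116 to 0.137 in BT474-Var4. Of these, KRT14 was well above background on all variant arrays and on no Control array. By the group means, BT474-Var1 exceeded Control in KRT14 at least 2.43-fold (adjusted p of the fitted change = 0.0048). BT474-Var4 did so at least 1.94-fold (adjusted p of the fitted change = 0.0105). KRT5 was at background throughout. TP63 lay the other way, well above background on Control B and on no variant array, and was too dim to be tested. The sum of the 2 leukocyte markers was 0.868 to 0.884 in Control, 0.939 to 0.969 in BT474-Var1 and 0.780 to 0.860 in BT474-Var4, and CD68 was not on the array under that name.

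**Figure D4:**
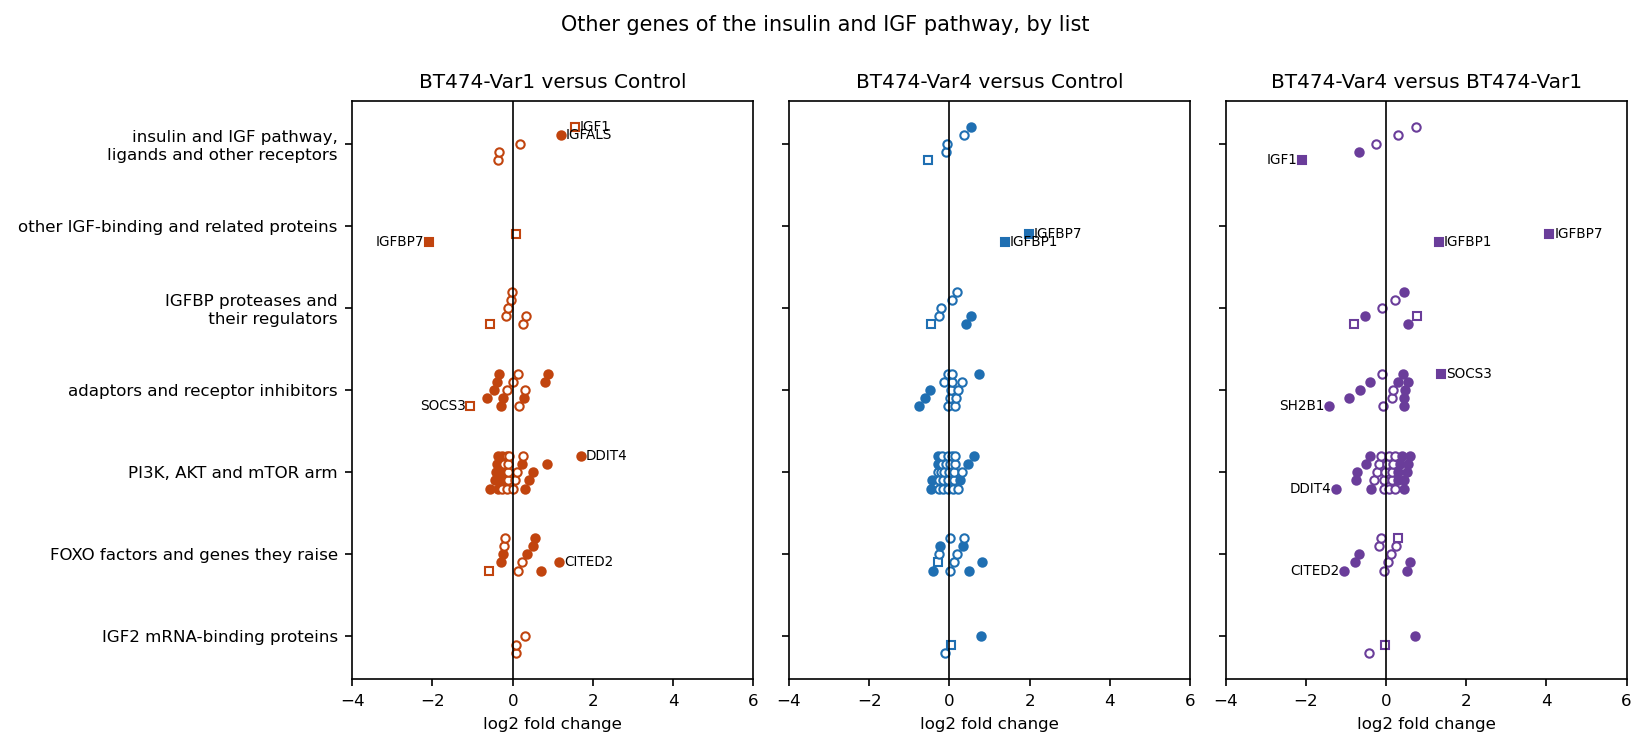
Log2 fold change of the 74 tested genes of 7 pathway lists in the 3 comparisons, filled symbols where the adjusted p was under 0.05 and squares where the probe was not well above background on every array of both groups. Genes that changed 2-fold or more are named, with IGFBP7, at a fitted 4.07 between the variants, farthest out, and DDIT4, at 1.70 in BT474-Var1, farthest among those drawn as circles.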

How the data were processed

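Cy3-labeled RNA of 6 BT474 samples was read on one-color Agilent arrays. The deposited files hold, per array, the spot intensities that the authors quantified with Agilent Feature Extraction 11.5.1.1 (background subtracted, linear scale, no scaling between arrays), together with its marks for outlier and well-above-background spots. A deposited table holds log2 values that the authors shifted to each array's 75th percentile in GeneSpring. The file headers give hg19.

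From the scanner files, log2 processed intensity less the 75th percentile over the array's non-control probes was computed, and a probe's spots were averaged without those marked as outliers. The result differed from the deposited table by a median of at most 0.0072. A probe was tested (31857 probes) if 1 or more groups had it well above background on both arrays, with a mean per group and eBayes in limma 3.58.1 (R 4.3.3) on all 6 arrays and Benjamini-Hochberg adjustment over all tested probes. Where a group was dim on both arrays, a bound replaces the fold: each dim array took the lowest signal that was well above background on it, if its own was lower. The procedure was tested on simulated data. The number of arrays limits the precision.

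Every probe of the 10 genes was reported. Of 7 pathway lists, the counts, the ligands and at most 12 genes called at 2-fold are given, and 1 listed gene was left out of every list, count and figure and is not reported here. The genes, lists and alternatives were chosen with earlier results of these data known. Alternatives were normexp (offset 50), quantile normalization, no dim filter, probes measured on all 6 arrays only and values of the deposited table. Others were a block on the replicate letter, trended and robust eBayes, each array left out, only the groups compared and contrasts of a one-way analysis of variance without eBayes. The study's methods name a one-way analysis of variance and no adjustment. The last alternative, with Benjamini-Hochberg adjustment, is thus not the study's own call. Promoters and gene order came from RefSeq (GRCh38.p14). Protein sequences were not used here.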

Additional observations from a re-analysis of the deposited data

Results flagged for a closer look

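The effects of the variants against Control differed, by the test of the difference itself, for 14 of the probes looked at here, which are those of the 10 genes and the brightest probe of each pathway gene described by name. Apart from the ligands INS, IGF1 and IGF2, pathway genes were named because they were called at 2-fold in some comparison. Their count among the 14 was thus partly fixed by that choice. Of the 10 tested probes of the 10 genes, 3 passed this test as higher in BT474-Var4 and 3 as lower. Of all 74 tested list genes, 39 passed it. These counts stand beside 20.4% of all tested probes higher and 20.7% lower. Since Control is shared, the difference tested is the change from BT474-Var1 to BT474-Var4 on the log2 scale, with limma's adjusted p over all tested probes. Among the receptors and substrates, IGF2R differed by 0.46 (adjusted p = 0.0052) and IRS1 by 0.87 (adjusted p = 0.0039) and 1.52 (adjusted p = 0.0023) on its probes. Among the binding proteins, IGFBP2 differed by -0.40 (adjusted p = 0.0072), IGFBP3 by -0.28 (adjusted p = 0.0179) and IGFBP5 by -1.45 (adjusted p = 0.0013).

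Of the other pathway genes, DDIT4 differed by -1.24 (adjusted p = 0.0012), CITED2 by -1.05 (adjusted p = 0.0012), SH2B1 by -1.41 (adjusted p = 0.0013) and IGFALS by -0.66 (adjusted p = 0.0125). SOCS3 differed by 1.37 (adjusted p = 0.0360), with BT474-Var1 A not well above background, and by 0.90 to 1.85 without 1 array. The fitted differences of IGF1 (-2.09, adjusted p = 0.0284), IGFBP1 (1.31, adjusted p = 0.0073) and IGFBP7 (4.07, adjusted p = 0.0029) rest on a group below background and are not sizes of change. The variants also differed in plasmid backbone and slide column, which cannot be told apart from the variant. Nor can the signal of the introduced RNA, which differed by 4.62 on the NR2F1-AS1 probe that read both variants.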

How the results depend on the processing

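Over the 30 member values and 15 alternatives, 362 results kept direction and side of the threshold, 73 lost the call, 10 gained it and 5 reversed. Of 22 calls, 9 held without each array and 7 under every alternative: IGFBP3 in both variants against Control, IGFBP5 in BT474-Var4 against Control and BT474-Var1, and IGF2R and both IRS1 probes in BT474-Var4 against BT474-Var1. With no filter on dim probes, the members past the test fell to 1 in BT474-Var1 and 2 in BT474-Var4 against Control, and the list genes to 7, 0 and 19 in the 3 comparisons by limma, with 39, 24 and 41 at an unadjusted p under 0.05. Over the whole array the number past the test fell as well, from 10958, 7710 and 13116 of 31857 probes to 2672, 722 and 5112 of 58201. The cause of these falls was not tested. With normexp, members at 2-fold in BT474-Var4 against BT474-Var1 fell to 1, where those of all tested probes fell from 2187 to 363. List genes past the test in BT474-Var4 against Control rose to 35 with normexp and to 37 with trended and robust eBayes. Over all tested probes that number rose from 7710 to 10894 and 11408. Without 1 array, members past the test were 3 to 7, 3 to 6 and 5 to 6, and list genes 13 to 26, 3 to 15 and 28 to 39.

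Some values that did not pass the test changed sign. In BT474-Var4 against Control without 1 array, IGF2R ran from -0.0047 (without Control A) to 0.031, INS from -0.25 to 0.091 (without BT474-Var4 B) and IGF1 from -1.19 to 0.11 (without Control A). In BT474-Var1 against Control, INS ran from -0.047 (without BT474-Var1 A) to 0.39 and IGFBP1 from -0.13 (without Control A) to 0.29, and IGFBP1 was -0.16 with quantile normalization. In BT474-Var4 against BT474-Var1, IGF1R ran from -0.086 to 0.0059 (without BT474-Var1 A) and was 0.0021 with normexp, and IRS2 ran from -0.15 to 0.072 (without BT474-Var4 A).

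Arrays of the same letter did not deviate together (correlations of -0.01, 0.05 and -0.02 over 31806 probes). Whether they shared a culture or a batch is not given by the labels and cannot be told from these correlations. With the letter as a replicate block, 7, 5 and 6 members and 29, 15 and 37 list genes passed the test, and 1, 2 and 2 members at 2-fold. Depth does not apply to arrays. Signal over background limited IGFBP6, IGF1, IGFBP1 and IGFBP7, and 2 arrays per group limit every estimate of spread.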
